A study of Homo sapiens with 6 samples.

Results

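AXL encodes a receptor tyrosine kinase. Its transcript was followed in OCM1A cells, a human melanoma line that the labels describe as of uveal origin, after the cells had been separated by flow cytometry into an ABCB1-positive and an ABCB1-negative fraction. ABCB1 (P-glycoprotein, MDR1) is a membrane pump that carries many drugs out of the cell, and a kit that detects MDR1 by an antibody shift was used to recognise positive cells. The positive and the negative fraction came from 1 line grown in the same serum-supplemented medium, with no drug or genetic change named. The series holds 3 ABCB1-positive and 3 ABCB1-negative samples from 3 shift assays, each read on a 1-colour Illumina bead array. AXL is 1 of 16923 genes that the platform annotation names on this array, and the gene is defined here by probe ILMN_1701877. It was chosen by its measured difference between the fractions, the largest negative log2 difference of all 13186 tested probes, so its levels are given as a description with no test.

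AXL belongs to the TAM family of receptors together with TYRO3 and MERTK. The vitamin K-dependent protein GAS6 activates all TAM receptors, while its relative PROS1 acts on TYRO3 and MERTK. Activated AXL recruits adaptors and signals through phosphoinositide 3-kinase and AKT, and the metalloproteases ADAM10 and ADAM17 release its extracellular part from the cell surface. In melanoma, high AXL is known from cell states with low activity of MITF, the master regulator of pigment cells, and such states tend to be invasive and tolerant of targeted drugs.

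The AXL promoter is shown because transcription factors linked to it are among the genes measured below. The RefSeq promoter table for GRCh38.p14 gives 2 start sites for AXL on chromosome 19. The 250 bases before the first one, which is the start of the gene, lie at chr19:41218973-41219222 on the plus strand. Capitals mark the GC box GGGCGG, the core that SP1 family factors bind.
AXL, bases before the gene start: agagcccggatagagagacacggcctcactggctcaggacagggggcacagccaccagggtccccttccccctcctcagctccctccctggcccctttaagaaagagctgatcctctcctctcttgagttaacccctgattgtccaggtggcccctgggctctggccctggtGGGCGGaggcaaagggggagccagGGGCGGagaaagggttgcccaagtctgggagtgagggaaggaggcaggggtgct
GGGCGG was searched on both strands and occurred 2 times, starting 78 and 54 bases before the gene start. It was present in 42.6% of 35116 windows of the same length. The AP-1 motif TGANTCA (6.6% of windows) and the TEAD motif CATTCC (11.9% of windows), also searched on both strands, had 0 matches in these 250 bases. The window before the second start site, at chr19:41226505-41226754, held 1 CATTCC and 0 of the other motifs. The motifs do not overlap in these letters, and a match is a description, not a binding site.

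The 6 arrays were alike in the number of probes detected, from 12876 to 13183 in ABCB1-positive and from 12846 to 13136 in ABCB1-negative arrays of 24526 probes, where detected means a detection p under 0.05. Mean signals ran from 668 to 894 in positive and from 670.3 to 958 in negative arrays, so overall brightness did not divide the fractions. On the first principal component (51.4% of the variance) positive replicate 2 lay nearest to the negative arrays, with a score of -0.6 against 12.1 to 31.3 in the negative arrays. The sort marker itself followed the labels. The ABCB1 probe read 408, 514 and 188 in positive replicates 1 to 3, against 78.4, 71.95 and 99.0 in negative replicates 1 to 3. ABCB1 was higher by 1.57 ± 0.27 on the normalised log2 scale (SE, n = 3 each, limma adjusted p = 0.0198). That adjusted p ranged from 2.84e-05 to 0.0925 over 21 alternatives, and it was 0.0925 without positive replicate 1, 0.0827 without negative replicate 1, 0.0592 without negative replicate 2 and 0.0736 without negative replicate 3. The melanoma markers PMEL, MLANA, TYR, TYRP1 and SOX10 were detected on all 6 arrays while S100B was on 0. Of the 7 tested probes of the melanoma marker list 0 were called, with or without the replicate block. Over all tested probes 5.15% were called without the block and 20.3% with it.

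AXL was bright in ABCB1-negative cells and close to the detection limit in ABCB1-positive cells. Probe ILMN_1701877 read 119, 27.8 and 49.7 background-subtracted signal units in ABCB1-positive replicates 1, 2 and 3, against 2666, 904 and 1471 in ABCB1-negative replicates 1, 2 and 3. All 3 positive arrays lay far below all 3 negative arrays, and the groups did not overlap. A lack of overlap was common here: on the normalised scale 27.2% of all tested probes had none. The mean signal was 65.4 ± 47.5 in the positive and 1680.0 ± 899 in the negative fraction (SD, n = 3 each). The probe still passed detection on every positive array, at detection p-values of 0.00753, 0.0392 and 0.0226, and the detection p was 0 on every negative array. AXL was thus low but above the detection limit in the positive fraction. In sorted bulk samples, fewer AXL-expressing cells and less AXL mRNA per cell cannot be told apart.

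The size of the difference was similar in the 3 pairs, although the level was not. In the authors' table, in which each array is scaled to the same mean, AXL read 105 in positive replicate 1 against 2822 in negative replicate 1, a signal 26.98 times as high in the negative array. Replicate 2 gave 32.8 in the positive and 1062 in the negative array, a ratio of 32.4. Replicate 3 gave 54.1 in the positive and 1209 in the negative array, a ratio of 22.3. The positive arrays thus held 3.71%, 3.09% and 4.48% of the scaled signal of their negative partners. Within a fraction the scaled AXL signal varied 3.19-fold between positive arrays and 2.66-fold between negative arrays, and even the lowest negative array stood 10.1 times above the highest positive array. Replicate 1 had the highest and replicate 2 the lowest AXL signal in both fractions.

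After background correction, quantile normalisation and log2 transformation, AXL was at 7.10 ± 0.40 in the positive and 10.58 ± 0.76 in the negative fraction (mean, SD, n = 3 each). The positive-minus-negative difference was -3.93, -3.37 and -3.14 in pairs 1 to 3, with a mean of -3.48 (SD of the pairs 0.40), which is 11.15-fold. This fold is smaller than the ratios of scaled signals; the correction adds an offset of 50 to each signal, and with an offset of 16 the difference was -3.87. The direction was the same in 3 of 3 pairs.

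A second probe of the gene, ILMN_2364521, gave the same order of arrays and was not used to choose it, but it reads the same RNA. The annotation assigns ILMN_1701877 to transcript NM_001699 and ILMN_2364521 to transcript NM_021913 of AXL, and which transcripts each can bind is not stated in the sources used here. ILMN_2364521 read 107, 29.6 and 47.99 in positive replicates 1 to 3, against 1359, 398 and 1108 in negative replicates 1 to 3. All positive values were again below all negative values. Its scaled signal was 15.2, 13.4 and 17.4 times as high in the negative array of pairs 1 to 3, and its normalised log2 difference was -3.08, -2.24 and -2.78, with a mean of -2.70 or 6.51-fold. In each of the 3 pairs the log2 difference was larger for ILMN_1701877 than for ILMN_2364521. Across the 6 arrays the normalised levels of both probes correlated with r = 0.989, given as a description, since both share every RNA sample.

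**Figure D1:**
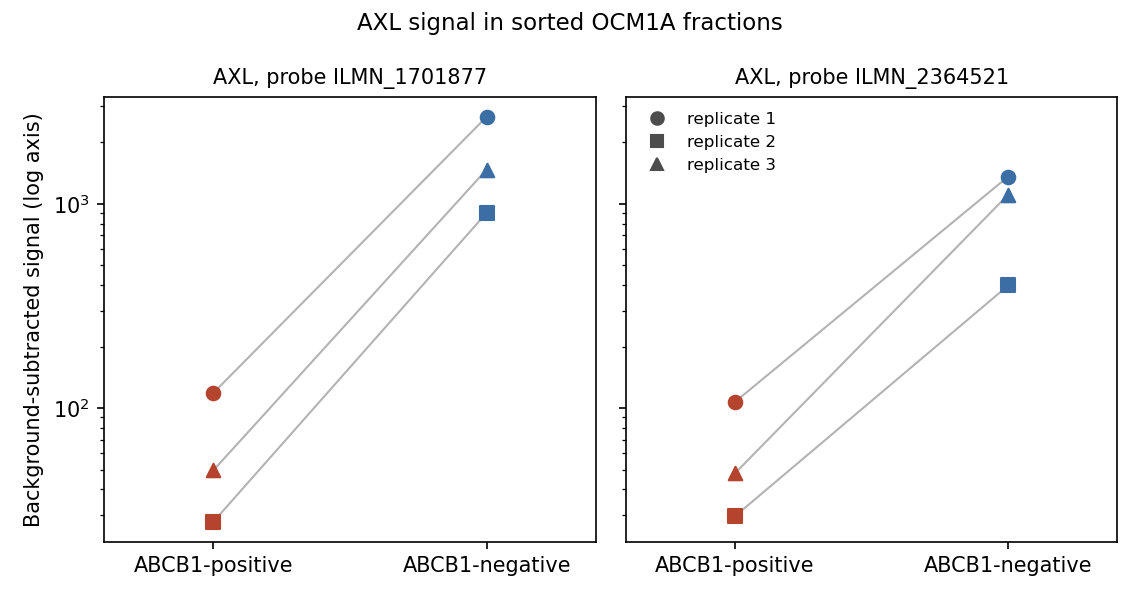
Background-subtracted signal of both AXL probes (log axis) in the ABCB1-positive and the ABCB1-negative fraction; each point is 1 array, marker shape gives the replicate number, and grey lines join arrays of equal number. For ILMN_1701877 the positive arrays read 119, 27.8 and 49.7 and the negative arrays 2666, 904 and 1471, with near-parallel lines.

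The AXL difference was negative in every processing setting tried, and its size varied. The probe was chosen for this difference and its groups did not overlap, so the kept sign is no added support. The setting named no background correction took the deposited values, already background-subtracted, without the further correction and its offset. Values below 1 were set to 1. The log2 difference of ILMN_1701877 was then -4.60. With neqc, which models the background from the detection p-values, it was -4.24. Both exceed the main value by more than the spread between replicates (0.605 on the log2 scale). In the order of falls AXL was at rank 1 in all alternatives but 3: it was at rank 11 with no background correction, at rank 2 without negative replicate 3, and at rank 2 with the block and without number 3.

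**Figure D2:**
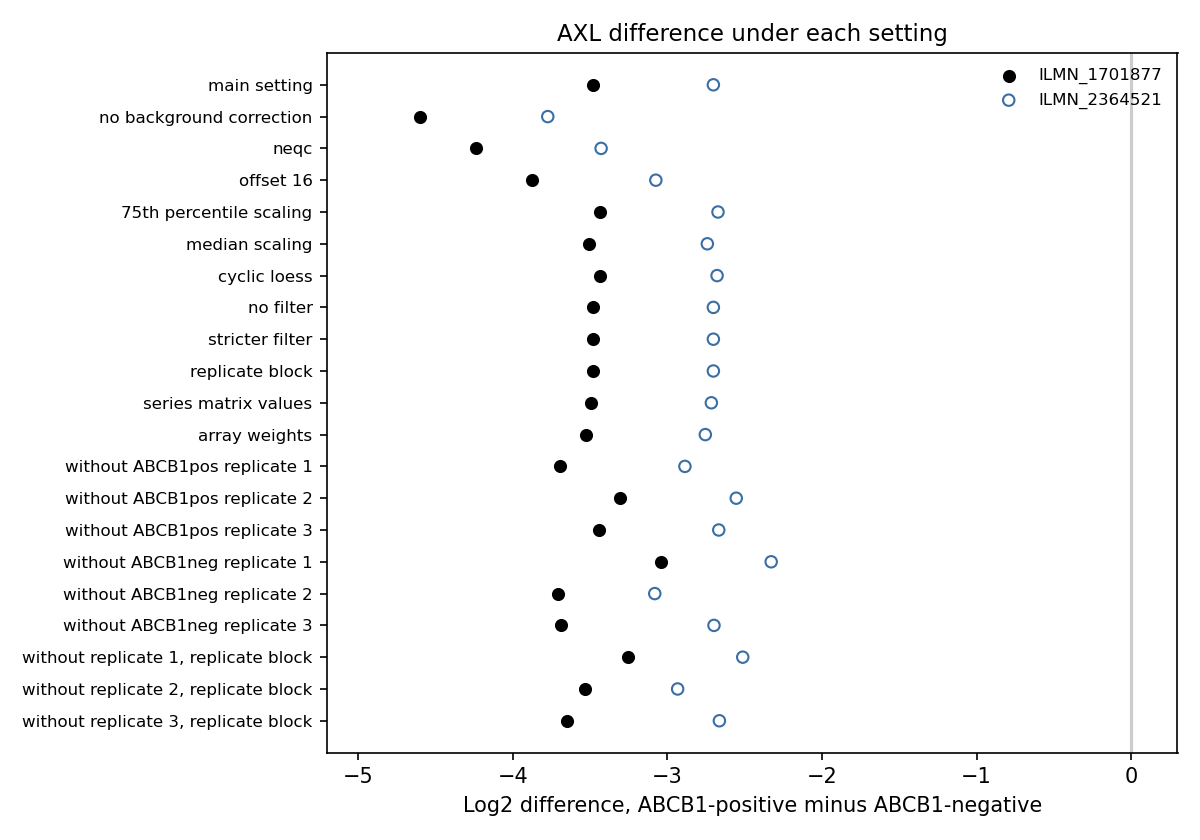
Log2 difference of AXL, ABCB1-positive minus ABCB1-negative, for ILMN_1701877 (filled) and ILMN_2364521 (open) under the main setting and each alternative. Values of ILMN_1701877 run from -4.60 with no background correction to -3.04 without negative replicate 1. No point reaches 0, which the choice of the gene by this difference favours.

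Next to AXL in the order of falls stood genes of other kinds. THBS1, a matrix glycoprotein, was lower by 3.30 on the log2 scale (9.88-fold), and RNF150, a RING-finger ubiquitin ligase, by 3.16. The serine protease PRSS23 was lower by 2.87, the transporter-like SLC35F1 by 2.85 and GLDC, the glycine decarboxylase of mitochondria, by 2.84. Signals of RNF150 were 33.1, 26.03 and 13.7 in positive replicates 1 to 3, against 1125, 901 and 602 in negative replicates 1 to 3. RNF150 was detected on 2 of 3 positive arrays, and its positive values lie near the background. These probes were picked by the same contrast and carry no test here.

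Neither of the other TAM receptors was called without the replicate block, in which arrays of equal number are compared as pairs. TYRO3, the paralogue with a clear signal in both fractions, read 1339, 796 and 939 in positive replicates 1 to 3, against 1065, 815 and 1671 in negative replicates 1 to 3. The fractions overlapped, and the normalised log2 difference was -0.03 ± 0.15 (SE, n = 3 each, limma adjusted p = 0.94, range 0.536 to 0.994 over 21 alternatives). Its pairs gave 0.09, -0.02 and -0.15, so the direction was not the same in all of them.

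MERTK, the TAM receptor best known for clearance of dying cells by phagocytes, was dim. It read 40.2, 11.7 and 54.9 in positive replicates 1 to 3, against 138, 55.3 and 287 in negative replicates 1 to 3, and it was detected on 2 of 3 positive and 3 of 3 negative arrays. Each negative array read higher than the positive array of equal number, but on the normalised scale the lowest negative value (7.07) and the highest positive value (7.08) overlapped. The log2 difference was -0.87 ± 0.28 (SE, n = 3 each) and MERTK was not called without the block (limma adjusted p = 0.123). With the replicate block it fell in limma at an adjusted p of 0.00334, with all 3 pairs in that direction (-0.95, -0.61 and -1.04). Over the 20 alternatives in which MERTK was tested, the adjusted p ranged from 0.0015 to 0.312, and 5 of them called it: array weights, the block, and the block without each of the 3 numbers.

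Of the ligands, PROS1 was abundant and GAS6 was not seen. PROS1 read 6018, 6119 and 4035 in positive replicates 1 to 3, against 5569, 5514 and 6828 in negative replicates 1 to 3. The groups overlapped, with a log2 difference of -0.11 ± 0.20 (SE, n = 3 each, limma adjusted p = 0.789, range 0.207 to 0.998 over 21 alternatives). GAS6, the only one of these ligands that binds AXL with high affinity, was not well above background with any of its 3 probes on any of the 6 arrays. The highest GAS6 signal was 20.4 in positive and 16.7 in negative arrays. Of the 3 tested probes beside AXL on the TAM list, 0 were called without the block, and with it 0 were higher and 1 was lower. Over all 13186 tested probes 5.15% were called without the block and 20.3% with it.

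**Figure D3:**
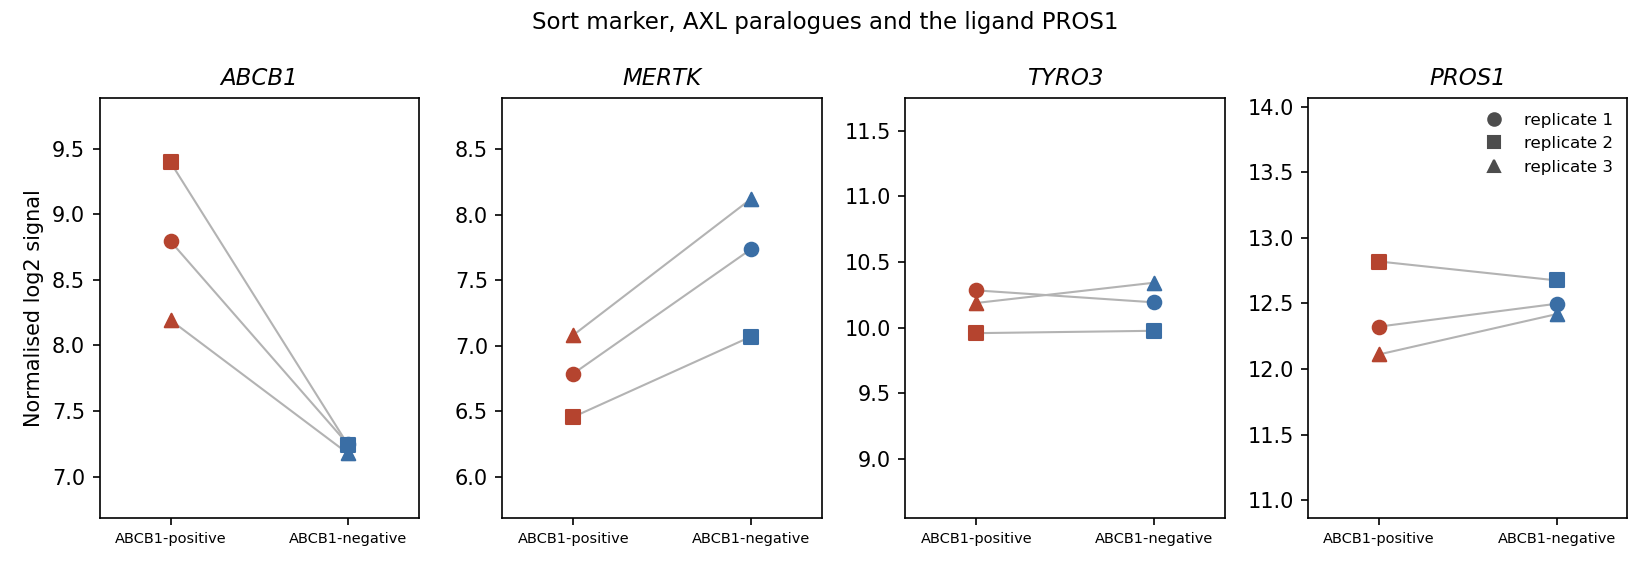
Normalised log2 signal of the sort marker ABCB1, of the AXL paralogues MERTK and TYRO3 and of the ligand PROS1 on each array, ABCB1-positive on the left and ABCB1-negative on the right of each panel, with lines joining arrays of equal replicate number; all panels span the same number of log2 units. ABCB1 is higher in all 3 positive arrays (mean 8.79 against 7.22), MERTK is lower in each pair, and TYRO3 and PROS1 overlap.

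For the other lists, the background is the share of all 13186 tested probes called in limma at an adjusted p under 0.05. Without the block this was 5.15%, with 3.5% higher and 1.65% lower in ABCB1-positive cells. With the replicate number as a block it was 20.3%, with 11.1% higher and 9.2% lower. The median log2 difference of all tested probes was -0.02, and in 27.2% of them the groups did not overlap. All lists were put together with earlier results of these data known, AXL itself is left out of each, and no list was tested as a set. Over the list probes 13 calls were made without the block and 35 with it. The number of calls depended on single arrays. Of the 13, 0 were called again without positive replicate 1, and 1 each without negative replicate 1 or negative replicate 3. The count was 7 without positive replicate 3, 7 without negative replicate 2 and 12 without positive replicate 2. All 13 kept their direction in each of these fits. That could not differ for probes whose groups do not overlap, since leaving out 1 array cannot reverse them.

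Several genes known to be high in AXL-high, MITF-low melanoma states fell in ABCB1-positive cells. Others on the list were not detected on any array of either fraction. These were ZEB1, SOX9, LOX, LOXL2, ANKRD1, DKK1, INHBA, IL6, EGFR and PDGFRB. Of 38 probes for 26 genes on the array, 23 probes for 16 genes were tested; 0 rose, 5 fell and 18 were not called without the block. With the block 1 rose and 11 fell. That is 21.7% called without the block and 52.2% with it, against 5.15% and 20.3% over all tested probes. Leaving out positive replicate 1 reduced the 5 falls to 0. Leaving out positive replicate 3 gave 2, and leaving out negative replicate 1 or negative replicate 3 gave 1 each. Of the 23 differences 5 were above 0. The list's median log2 difference was -0.43, against -0.02 over all tested probes. The 5 falling probes belonged to THBS1, TPM1, WNT5A, TNC and NT5E. The block added falling probes of TPM1, NGFR, FN1 and CCN2, with more than 1 each for TPM1 and FN1, so calls outnumber genes. Of all these genes, THBS1 was already known to fall when the list was put together.

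WNT5A, a secreted ligand of non-canonical Wnt signalling, read 4.05, 3.77 and 15.1 in positive replicates 1 to 3, against 155, 51.45 and 266 in negative replicates 1 to 3. It was not well above background on any positive array and was detected on all 3 negative arrays. This makes it at least 1.97-fold lower in positive cells (limma adjusted p = 0.0309); the bound sets the mean of the negative arrays against the lowest detected level of each positive array. TNC, the matrix protein tenascin C, read 915, 473 and 810.1 in positive replicates 1 to 3, against 1685, 1420.2 and 1999 in negative replicates 1 to 3. Its groups did not overlap and it fell by 1.03 ± 0.19 on the log2 scale (SE, n = 3 each, limma adjusted p = 0.0252).

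NT5E, the surface ectonucleotidase CD73, read 198, 155 and 132 in positive replicates 1 to 3, against 572, 294 and 563 in negative replicates 1 to 3. It fell by 1.03 ± 0.20 (SE, n = 3 each, limma adjusted p = 0.0269). TPM1, an actin-binding tropomyosin, had 3 tested probes. Probe ILMN_2360710 fell by 1.53 ± 0.35 (SE, n = 3 each, limma adjusted p = 0.048), and ILMN_1716687 had a log2 difference of -1.57 (limma adjusted p = 0.0563). Probe ILMN_2278152, not well above background in positive arrays, was at least 1.23-fold lower there (limma adjusted p = 0.111). With the block ILMN_1716687 and ILMN_2278152 were called as well (limma adjusted p = 0.00271 and 0.0292). NGFR, the low-affinity neurotrophin receptor of neural crest-like melanoma states, read 40.1, 2.72 and 19.5 in positive replicates 1 to 3, against 229, 58.9 and 135 in negative replicates 1 to 3. It was detected on 1 of 3 positive and 3 of 3 negative arrays, so its log2 difference of -1.06 is measured largely against background (limma adjusted p = 0.0842 without the block and 0.00323 with it). FOSL1, an AP-1 subunit often high beside AXL, differed by -0.01 (limma adjusted p = 0.988). JUN differed by 0.84 (limma adjusted p = 0.0684 without the block and 0.00704 with it).

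Pigment-cell genes were called in both directions. Of 33 tested probes for 20 genes, 3 rose and 1 fell without the block, and 9 rose and 4 fell with it, with a median log2 difference of 0.03. That is 12.1% called without the block and 39.4% with it, against 5.15% and 20.3% over all tested probes. MITF was measured by 2 tested probes with differences of 0.03 and 0.22 on the log2 scale (limma adjusted p = 0.926 and 0.641). Its brighter probe read 3901, 4393 and 2456 in positive replicates 1 to 3, against 2798, 3278 and 3620 in negative replicates 1 to 3. MITF mRNA was thus well detected in both fractions. The 3 rising probes belonged to RAB27A, SLC45A2 and TRPM1. RAB27A, which tethers melanosomes for transport, read 270.5, 168 and 219.6 in positive replicates 1 to 3, against 77.6, 90.9 and 83.4 in negative replicates 1 to 3 for probe ILMN_1681461. That probe rose by 1.01 ± 0.15 on the log2 scale (SE, n = 3 each, limma adjusted p = 0.0115), and the other 2 tested RAB27A probes were not called (log2 differences 0.08 and 0.58). SLC45A2, a melanosomal transporter, rose with 1 of 3 probes (0.88 ± 0.17, SE, n = 3 each, limma adjusted p = 0.0269). TRPM1, an ion channel gene regulated by MITF, was not well above background in negative arrays and was at least 1.63-fold higher in positive cells (limma adjusted p = 0.0358). GPNMB, a melanosomal glycoprotein, fell with 1 of 2 probes without the block (-0.68 ± 0.15, SE, n = 3 each, limma adjusted p = 0.044). The other GPNMB probe, at -0.60, was called only with the block (limma adjusted p = 0.0879 without it and 0.0155 with it).

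Of 76 probes for 48 genes of other receptor tyrosine kinases, 30 probes for 22 genes were tested. Without the block 1 rose and 0 fell, or 3.33% called, near the 5.15% called over all tested probes. With the block 3 rose and 1 fell, or 13.3%, against 20.3% over all tested probes. The 1 called without the block was EPHA4, an ephrin receptor, and it moved opposite to AXL. EPHA4 read 637, 583 and 339.6 in positive replicates 1 to 3, against 105, 176 and 135 in negative replicates 1 to 3, a rise of 1.595 ± 0.23 on the log2 scale (SE, n = 3 each, limma adjusted p = 0.0111). The block added PTK7 and KIT among the higher and ERBB3, with 1 of 3 probes, among the lower. EGFR, PDGFRB and FGFR1, which often accompany AXL in MITF-low cells, did not pass the detection filter. The log2 differences of the 30 probes ran from -0.69 to 1.595 with a median of -0.06.

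Among adaptors, effectors and shedding proteases of AXL, 27 probes for 18 genes were tested, with a median log2 difference of 0.00. Without the block 1 rose and 0 fell, or 3.7% called, again near the 5.15% over all tested probes. With the block 2 rose and 0 fell, or 7.41%, against 20.3%. The rising probe, ILMN_1740160, reads PLCG1, a phospholipase that receptor tyrosine kinases phosphorylate. It gave 1362, 912 and 959 in positive replicates 1 to 3, against 658, 418 and 835 in negative replicates 1 to 3, and rose by 0.87 ± 0.15 (SE, n = 3 each, limma adjusted p = 0.0218). A second PLCG1 probe had a difference of 0.31 (limma adjusted p = 0.354). The AXL-shedding protease ADAM17 had a log2 difference of -0.34 (limma adjusted p = 0.387) and ADAM10 one of -0.23 near the detection limit (limma adjusted p = 0.549). GRB2, an adaptor of many receptors, had 2 probes at -0.13 and 0.06 (limma adjusted p = 0.747 and 0.851).

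Of the transcription factors linked to the AXL promoter, 17 probes for 15 genes were tested and 0 were called without the block. With the block 1 rose (JUN) and 2 fell (WWTR1 and 1 of 2 HIF1A probes), or 17.6% called, near the 20.3% over all tested probes. The list median was -0.10. WWTR1 encodes TAZ, a partner of TEAD factors, and read 213, 146.5 and 220.4 in positive replicates 1 to 3, against 466, 235 and 674 in negative replicates 1 to 3. Its groups did not overlap on the normalised scale, at a log2 difference of -0.75 ± 0.23 (SE, n = 3 each, limma adjusted p = 0.108 without the block). YAP1 differed by -0.07 (limma adjusted p = 0.873) and SP1 by -0.34 (limma adjusted p = 0.422).

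Among the genes beside AXL on the chromosome 0 tested probes fell. Of the 5 annotated genes on either side, 3 have probes here. CYP2S1 had 0 of 2 probes in the test. HNRNPUL1, the nearest downstream protein-coding gene, had 2 probes, with log2 differences of 0.26 and 0.68 (limma adjusted p = 0.543 and 0.063), and CCDC97 one of 0.30 (limma adjusted p = 0.23). Of these 3 tested probes, 0 were called without the block and 1, for HNRNPUL1, rose with it, against 5.15% and 20.3% called over all tested probes.

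**Figure D4:**
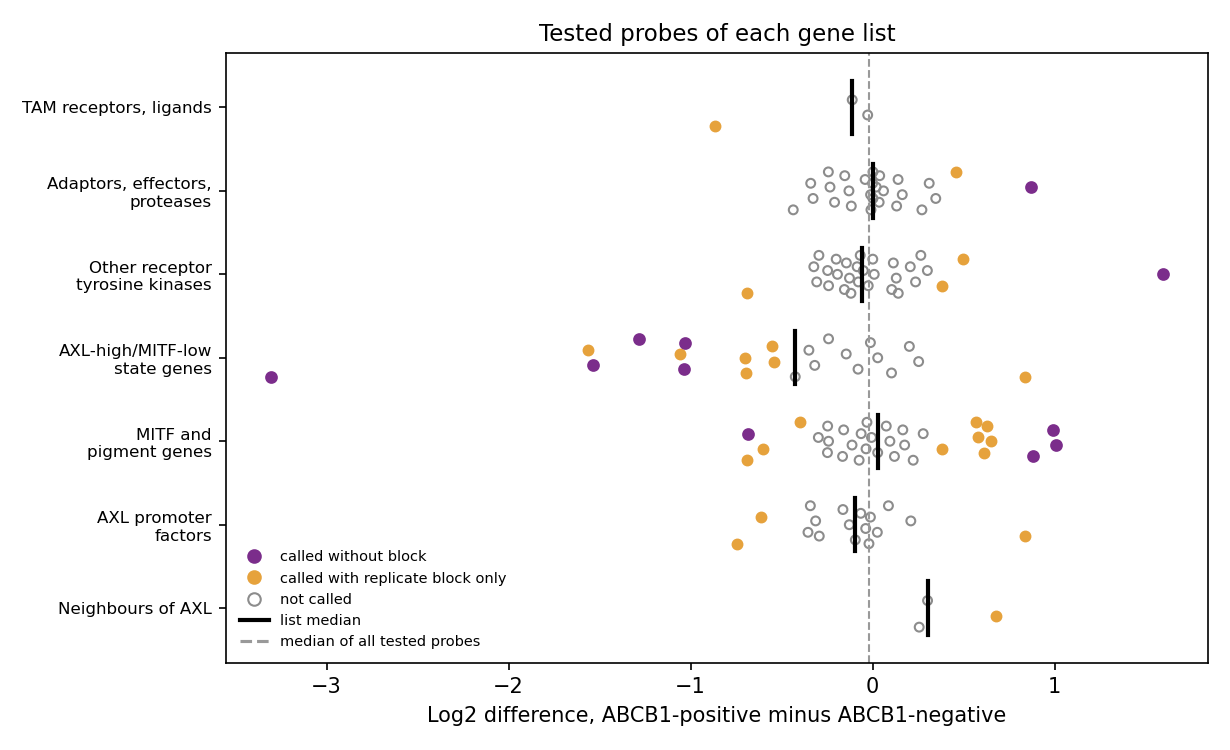
Log2 difference, ABCB1-positive minus ABCB1-negative, of every tested probe in each gene list without AXL; purple points were called in limma without the block, orange points with the replicate block only, open points with neither, black bars are list medians and the dashed line is the median of all tested probes (-0.02). The list of AXL-high, MITF-low state genes reaches from -3.30 to 0.84 and holds 5 purple points, all below 0.

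The probes most like AXL were found by Pearson correlation of normalised log2 levels over the 6 arrays, among the 337 other probes that differed by more than 1 on the log2 scale. Because all 337 differ between the fractions, high correlations were common: 26.1% had r over 0.9 and 23.4% had r under -0.9. The 6 highest were FCRLA (r = 0.9985), TMEM47 (0.997), PLOD1 (0.992), MYOF (0.991), CRIM1 (0.991) and OLFML2A (0.990), the last detected on 1 of 3 positive arrays. Each of them, like AXL, was highest in negative replicate 1 on the normalised scale, which the choice by correlation with AXL favours.

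These genes differ in kind. FCRLA is an intracellular Fc receptor-like protein, TMEM47 a membrane protein of cell junctions, PLOD1 a collagen lysyl hydroxylase, MYOF a ferlin of the plasma membrane, CRIM1 a transmembrane protein with growth factor-binding repeats, and OLFML2A an olfactomedin-like secreted protein. MYOF had the largest difference of them. It read 698, 503 and 405 in positive replicates 1 to 3, against 4809.8, 2578 and 3401 in negative replicates 1 to 3, a log2 difference of -2.44 or 5.43-fold. PLOD1 had the smallest, at -1.07.

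The 6 lowest were STK32A (r = -0.989), a serine/threonine kinase gene, the unnamed probe ILMN_1774110 (-0.983), KRTAP19-1 (-0.979), the unnamed probe ILMN_1732023 (-0.978), TRIM48 (-0.977) and DNAJC12 (-0.975), a co-chaperone gene. STK32A read 433, 358 and 438 in positive replicates 1 to 3, against 84.1, 138 and 206 in negative replicates 1 to 3. All 6 were lowest in negative replicate 1, the array where AXL was highest, which the choice by correlation also favours. The choice of these 12 depended on the background correction: with no correction 4 of them and with neqc 5 of them were chosen again.

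**Figure D5:**
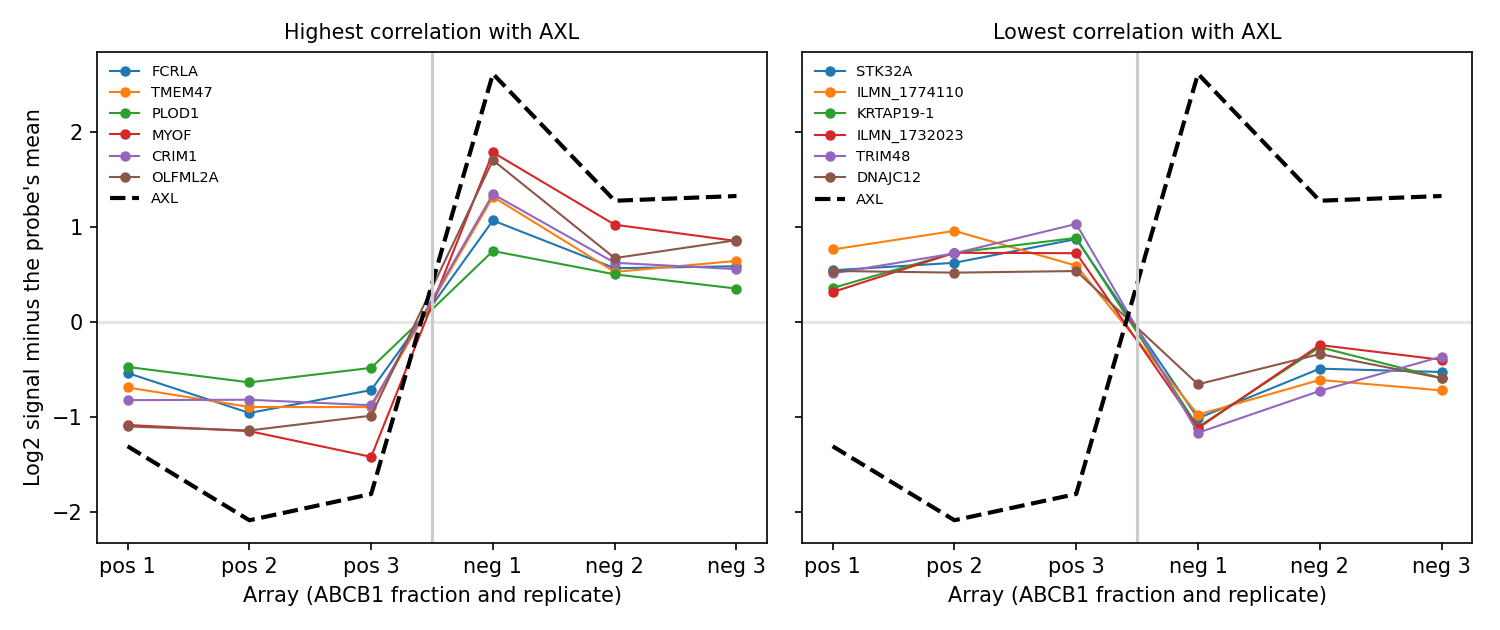
Normalised log2 signal minus the probe's own mean over 6 arrays, for the 6 probes with the highest (left) and lowest (right) correlation with AXL, and for AXL itself (dashed black); arrays run from positive 1 to 3 to negative 1 to 3. AXL and the 6 probes on the left peak in negative replicate 1, where the 6 probes on the right are lowest. The probes were chosen by correlation over these same arrays, which favours this pattern.

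Markers of other cell types were measured beside AXL. Of the fibroblast markers COL1A1, COL1A2, COL3A1 and DCN, 0 of 6 probes were detected on any array. Their summed signal ran from -1.68 to 2.94 in positive and from -10.4 to -0.81 in negative arrays. Of the endothelial markers, VWF and CDH5 were not detected on any array, and PECAM1 was dim on all 6 with a log2 difference of 0.21 (limma adjusted p = 0.398). Their summed signal ran from 43.8 to 48.99 in positive and from 21.2 to 67.4 in negative arrays. All 3 PTPRC probes, the pan-leukocyte marker, were below detection, and 1 of 2 CD14 probes was detected with a log2 difference of 0.03 (limma adjusted p = 0.958). The leukocyte list summed to between 93.9 and 159 in positive and between 66.3 and 228 in negative arrays. Of the epithelial markers, KRT5, KRT14 and CDH1 were not detected and EPCAM differed by 0.07 (limma adjusted p = 0.783). That list summed to between 14.7 and 42.9 in positive and between 25.3 and 39.1 in negative arrays. The part of other cell types in the AXL difference was not tested beyond these levels.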

How the data were processed

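Biotin-labelled cRNA from sorted OCM1A fractions was read on Illumina bead arrays, 3 per fraction. Per the file headers, the deposited table holds, for each probe and array, an intensity and its detection p-value; the intensity had been background-subtracted before deposit, since it runs below 0. The authors' second table holds the same intensity values multiplied by 1 factor per array (0.822 to 1.18), which sets every array mean to 787. Scanner software and array slides: not given in the sources used here. Of 24526 probes, 21834 were paired with 1 gene and 0 with several by GEO's platform annotation, 2692 had none, and 0 symbols changed when updated by gene number against RefSeq. Promoter sequence came from RefSeq.

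Signals were corrected with normexp (offset 50), quantile-normalised, put on the log2 scale and fitted with limma 3.58.1 (R 4.3.3; lmFit and eBayes, two-sided, Benjamini-Hochberg over 13186 probes with a detection p under 0.05 on at least 3 arrays). A call is an adjusted p under 0.05. The fit was tested on simulated data with independent noise on each array, so without deviations shared by arrays of equal number. Differences are ABCB1-positive minus ABCB1-negative.

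Arrays of equal number deviated together from their group means (r = 0.475, 0.641 and 0.479 over probes). Positive and negative arrays of unequal number had r from -0.536 to 0.137. The numbers were therefore taken to pair samples of 1 assay. Unless the block is named, SE and adjusted p come from the fit that does not use this pairing. Blocked results are given for the counts and for some of the probes whose call they change. With 1 line, p-values cover only the spread among these 3 assays, and the number of arrays limits the precision.

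The gene and all lists were chosen with earlier results of these data known. Named genes were AXL, its TAM family, up to 5 called probes per direction and list, members on which a result turns, the 5 probes next in the order of falls and the 6 most and least correlated probes. NGFR, FOSL1, JUN, WWTR1, YAP1, SP1, MITF, GRB2, ADAM10 and ADAM17 were added for their roles after values were seen. So were EGFR, PDGFRB, FGFR1, PTK7, KIT and ERBB3. FN1, CCN2, ZEB1, SOX9, LOX, LOXL2, ANKRD1, DKK1, INHBA and IL6 were also added after values were seen. Alternatives covered the background correction, offset, scaling, filter, block, array weights, variance prior, the authors' scaled table and leaving out arrays.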

Additional observations from a re-analysis of the deposited data

How the results depend on the processing

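The AXL difference of -3.48 moved beyond the replicate spread under 2 alternatives, to -4.60 with no background correction and -4.24 with neqc. Leaving out 1 array gave -3.71 to -3.04. Its sign stayed negative throughout, which the choice of the probe by this difference favours. The count of called probes, 679, became 383 with median scaling, 2682 with the replicate block, 4607 with array weights, 1333, 2732 and 2440 with the block and without number 1, 2 or 3, and 20 to 1348 without 1 array. Calls over the list probes, 13, became 7 with median scaling and 35 with the block. In alternatives added for the lists after seeing the data, they became 49 with array weights, 19, 35 and 39 with the block and without number 1, 2 or 3, and 0 to 18 without 1 array. Of the 12 probes most and least like AXL, 4 were chosen again with no background correction, 5 with neqc, and 7 each with offset 16 and median scaling. Uncalled genes changed sign around 0: PROS1 (-0.11) was 0.002 with 75th percentile scaling and -0.31 to 0.041 without 1 array, and TYRO3 (-0.03) was 0.009 with cyclic loess, 0.08 with array weights, 0.036 with the block without number 3, and -0.12 to 0.066 without 1 array. For all these values the cause was not tested. Among the TAM genes the block changed the call of MERTK alone. No slide was known, so slide was not blocked. AXL in ABCB1-positive cells lies near the detection limit, so its fold there is limited by the background.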

Other observations

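Beside ABCB1, its neighbour and close relative ABCB4, a phospholipid transporter of the same family, rose in ABCB1-positive cells. It read 376, 375 and 285 in positive replicates 1 to 3, against 149, 173 and 204 in negative replicates 1 to 3, a log2 difference of 0.91 ± 0.15 (SE, n = 3 each, limma adjusted p = 0.0162). Whether the ABCB4 probe also binds ABCB1 mRNA was not tested. Of 9 tested probes for 7 ABC drug transporter genes, 2 rose and 0 fell without the block, and 2 rose and 1 fell with it. That is 22.2% and 33.3% called, against 5.15% and 20.3% over all tested probes. The 2 rising probes were those of ABCB4 and of ABCB1, the marker by which the cells were sorted. The one that fell with the block was ABCG2, a transporter often used to mark drug-effluxing cells, which was not well above background on any positive array and was at least 1.22-fold lower there (limma adjusted p = 0.156 without the block). ABCC2 and the 3 probes of ABCC5 had log2 differences between 0.00 and 0.21, and 0 of these 4 were called; ABCC4 differed by -0.37 (limma adjusted p = 0.319).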
